A study of Mus musculus with 9 samples.

Results

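Apolipoprotein E and 9 further genes that move cholesterol and other lipids into, through and out of cells were followed in brain cells sorted for CD11b, an integrin of the surface of myeloid cells. The 10 genes were chosen by name (Apoe, Lpl, Abca1, Abcg1, Nceh1, Sorl1, Soat1, Npc2, Nr1h3 and Ch25h) out of 31053 genes in the count files, by their known roles and not by a threshold on a measured value. Earlier results of these data were known when they were chosen, so that the choice was not blind to them. Ctrl mice received no inhibitor, D0 mice had PLX5622, which blocks the receptor CSF1R that microglia need to survive, at 1200 mg/kg in the diet for 14 days, and D2 mice had the same course followed by 2 days of control diet. All were female C57BL/6J mice 5 months old, with 3 Ctrl libraries of 1 brain each, 3 D0 libraries of 2 pooled brains each and 3 D2 libraries of 2 pooled brains each. The microglia taken from D0 and D2 brains are those that outlasted the inhibitor or arose after it, so that a change within cells cannot be told apart from a change in which cells remained.

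Cells of the brain hand cholesterol to one another on particles built around apolipoprotein E, the main lipid carrier protein of the central nervous system, which is made mostly by astrocytes and by macrophages and microglia that have left their resting state. Lipids taken up with such particles or with engulfed membrane are freed in the lysosome, where Npc2 binds cholesterol and helps it leave. The free sterol is then stored as ester by Soat1, released again by ester hydrolases such as Nceh1, or exported by the pumps Abca1 and Abcg1, whose genes are switched on by the oxysterol receptor LXR, of which Nr1h3 encodes the alpha form. Lpl encodes lipoprotein lipase, which frees fatty acids from particles, Sorl1 a sorting receptor of the endosome that binds apolipoprotein E, and Ch25h the enzyme that makes 25-hydroxycholesterol.

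The 9 libraries held from 20257894 to 61230741 unique molecular identifiers (UMIs, tags that count each captured transcript once), and from 1808 to 4980 cells a library passed the limits on depth. D2-3 stood apart: the upper limit of 20000 UMIs removed 37.3% of its barcodes, and its microglia-like cells numbered 750. It was left out of the comparisons, a choice that follows the study's methods. No pair of libraries shared more than 7 cell barcodes. Clusters were drawn without the 10 genes and named from markers, which gave 21615 microglia-like cells in the 8 libraries. All 12 microglia markers were detected in them in each group, with a summed level of 30203 to 36365 counts per 1000000 UMIs (CPM) in Ctrl, 21164 to 23588 CPM in D0 and 17705 to 18143 CPM in D2. The UMIs of a class were then summed per library, edgeR's quasi-likelihood test was run on the sums, and a gene was called at a Benjamini-Hochberg adjusted p under 0.05.

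Of the 10 genes, 4 were called higher in D0 and 6 in D2 microglia-like cells, and none was called lower in either. Apoe, Lpl, Nceh1 and Npc2 were higher at both times, whereas Sorl1 and Ch25h passed the test at D2 and not at D0, a difference between the 2 times that edgeR did not call for either gene. Over all 12388 genes tested, 12.6% were called higher and 7.59% lower in D0, and 10.6% higher and 7.42% lower in D2. Abca1, Abcg1, Soat1 and Nr1h3 were not called at either time. The D0 and D2 comparisons share the same Ctrl libraries and are not independent of each other. With D2-3 in the fit, the calls left were the 3 of Lpl, Nceh1 and Ch25h in D2.

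**Figure D1:**
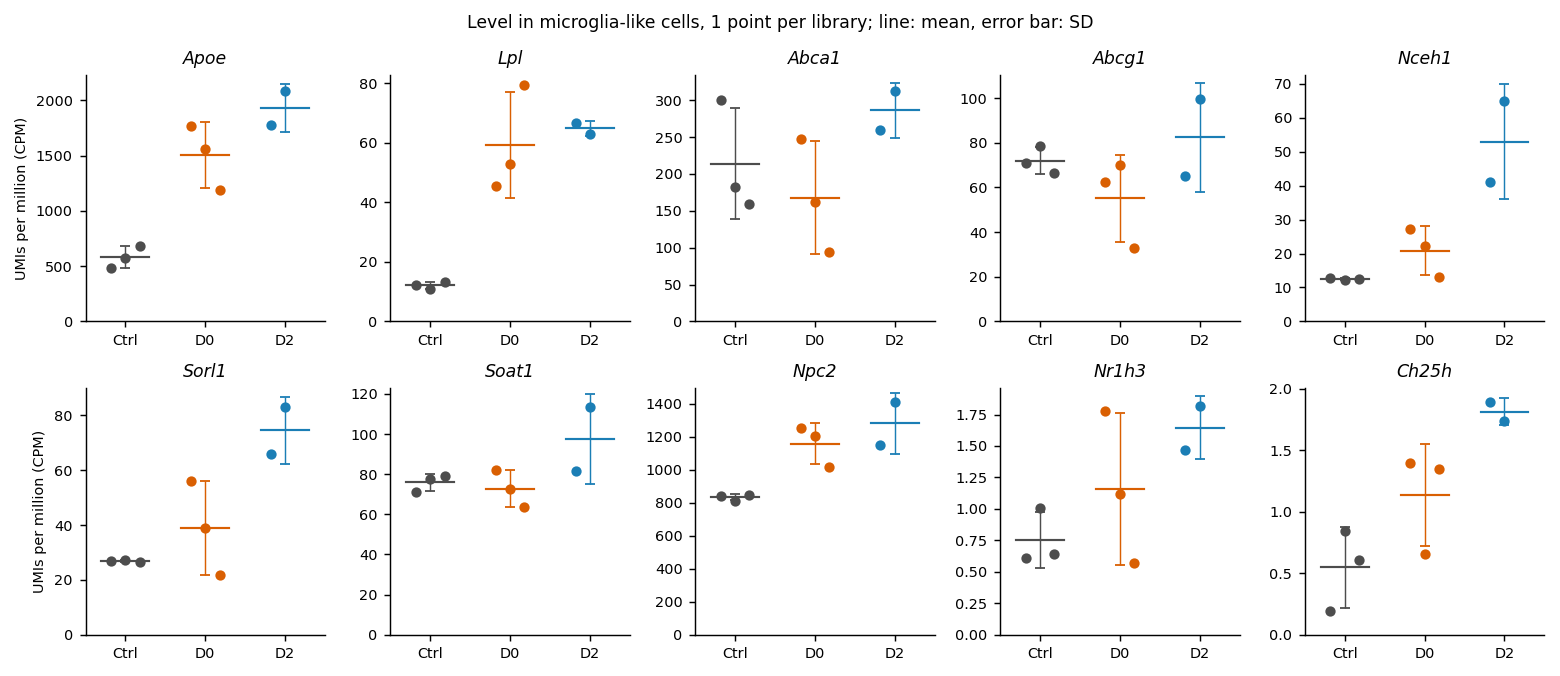
Level of each gene in the summed microglia-like cells, in CPM (vertical axes, linear and starting at 0, a different range in each panel), with 1 point per library, a line at the mean and an error bar of 1 SD (Ctrl n = 3, D0 n = 3, D2 n = 2). For Apoe, Lpl, Nceh1 and Npc2 the points of D0 and of D2 lie above all Ctrl points, while for Abca1 and Abcg1 those of D0 and of D2 each overlap with Ctrl.

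Among the genes called, Nceh1 and Sorl1 hold the E-box CACGTG, the letters bound by several helix-loop-helix factors that include regulators of lysosomal genes, in the 250 bases before a transcript start, and these windows are shown beside the first window of Apoe, which holds none of the motifs searched. Capitals mark motifs. The window of Nceh1 lies at chr3:27182754-27183003 on the plus strand, that of Sorl1 at chr9:42124298-42124547 and that of Apoe at chr7:19699189-19699438, both on the minus strand (RefSeq, build GRCm38.p6, written 5′ to 3′).
Nceh1: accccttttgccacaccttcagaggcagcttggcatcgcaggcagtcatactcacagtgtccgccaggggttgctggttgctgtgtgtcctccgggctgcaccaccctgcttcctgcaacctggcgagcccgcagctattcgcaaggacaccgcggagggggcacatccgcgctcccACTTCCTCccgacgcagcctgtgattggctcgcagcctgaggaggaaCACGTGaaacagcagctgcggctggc
Sorl1: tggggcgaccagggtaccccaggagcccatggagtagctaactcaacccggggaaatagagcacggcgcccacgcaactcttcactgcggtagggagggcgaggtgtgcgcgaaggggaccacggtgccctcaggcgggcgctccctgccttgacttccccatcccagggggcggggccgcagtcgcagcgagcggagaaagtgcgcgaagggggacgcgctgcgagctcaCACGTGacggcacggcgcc
Apoe: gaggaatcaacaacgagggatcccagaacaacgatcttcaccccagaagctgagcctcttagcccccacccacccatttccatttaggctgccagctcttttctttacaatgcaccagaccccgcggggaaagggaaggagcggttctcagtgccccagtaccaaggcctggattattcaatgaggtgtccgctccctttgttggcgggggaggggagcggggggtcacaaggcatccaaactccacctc
In Nceh1 the E-box begins 26 bases before the start and the core of the PU.1 element, GAGGAAGT, 73 bases before it, read there on the opposite strand. In Sorl1 the E-box begins 19 bases before the start. Motifs were searched on both strands of 12 windows that belong to 8 of the 10 genes, Lpl and Abcg1 having no entry. The E-box was in 3 of these windows (the third belongs to Abca1) and in 6.02% of 32851 windows of all genes, and the PU.1 core in 1 and in 2.44%. The letters TATAAA were in 3 windows, of Apoe (its second window), Abca1 and Ch25h, against 12.4% of all windows. AGGTCA, the core of the LXR element, was in none, against 14.0% of all windows, and neither was the element of a pair of these cores 4 bases apart, which 0.0152% of all windows hold. The search took only these exact letters. An LXR element with other letters would be missed, so that the absence of such elements is not shown. The AP-1 letters TGACTCA, in 4.46% of all windows, were in none either.

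Apoe, the carrier, was at 483, 575 and 684 CPM in the 3 Ctrl libraries, at 1771, 1563 and 1188 CPM in D0 and at 1780 and 2087 CPM in D2. Every D0 and D2 library lay above every Ctrl library, and both D2 libraries lay above the 3 D0 libraries. The group means were 580 ± 101 CPM (SD, n = 3), 1507 ± 295 CPM (n = 3) and 1934 ± 217 CPM (n = 2). By edgeR, Apoe was higher by 1.58 on the log2 scale in D0 (SE 0.188, 2.99-fold, adjusted p = 0.000377) and by 1.84 in D2 (SE 0.203, 3.59-fold, adjusted p = 0.000267). The gene lies at chr7:19696109-19699188 on the minus strand (GENCODE, build GRCm38).

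Which cells were summed decided the call for Apoe. When all myeloid cells kept by the study were summed, macrophage-, monocyte- and dendritic cell-like cells and unnamed clusters included, the log2 difference was 0.12 in D0 (edgeR, adjusted p = 0.640) and 0.42 in D2 (adjusted p = 0.148). Without the upper limit on UMIs it was 0.77 in D0 (adjusted p = 0.0835). The cells over that limit that were placed as microglia-like held Apoe at 961, 1891 and 2000 CPM in Ctrl, at 884, 1213 and 1077 CPM in D0 and at 1988 and 1919 CPM in D2. The 12 border-associated macrophage markers summed in them to 284, 561 and 552 CPM, to 76.4, 105 and 116 CPM, and to 137 and 62.8 CPM, so that Apoe was high in Ctrl-2 and Ctrl-3 beside a high marker sum and in both D2 libraries beside a low one. These sums rest on 151, 395 and 435 cells in Ctrl, 49, 483 and 784 in D0 and 55 and 109 in D2. They are not typical of a cell: the median was 9 and 12 Apoe UMIs in Ctrl-2 and Ctrl-3, with a 90th percentile of 302 and 277. In D2 the medians were 17 and 7 and the 90th percentiles 130 and 142. Within the depth limits, the sum of the 12 macrophage markers in microglia-like cells was 220 to 273 CPM in Ctrl, 119 to 153 CPM in D0 and 126 to 128 CPM in D2, and the sum of 9 astroglial markers was 179 to 199, 103 to 127 and 102 to 128 CPM, so that both moved in the direction opposite to Apoe. The 10 dendritic cell markers moved with Apoe. They summed to 55.7 to 60.9 CPM in the Ctrl libraries, against 69.3 to 87.3 CPM in D0 and 87.8 to 90.96 CPM in D2. The 12 monocyte markers summed to 59.3 to 172 CPM in Ctrl, 103 to 350.4 CPM in D0 and 139 to 152 CPM in D2. Their D0 range overlapped that of Ctrl, and both D2 libraries lay within it. The part of these lists in the difference of Apoe was not tested.

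Lpl, the lipase, was at 12.4, 10.8 and 13.1 CPM in Ctrl, at 45.4, 52.8 and 79.4 CPM in D0 and at 66.6 and 63.0 CPM in D2. The Ctrl libraries were close to one another and all 5 libraries of treated mice lay far above them, with D0-3 the highest. The change was the largest of the 10 in D0, with a log2 difference of 2.50 (SE 0.209, 5.67-fold, adjusted p = 3.89e-05 by edgeR), and was 2.53 in D2 (SE 0.223, 5.77-fold, adjusted p = 6.13e-05). Only the inclusion of D2-3 took the D0 call away among the 21 alternatives (adjusted p = 0.0669), and the D2 call was kept in all 21. Lpl spans chr8:68880491-68907448 on the plus strand.

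The 2 exporters of sterol did not pass the test. Abca1 (chr4:53030787-53159895, minus strand), which loads cholesterol onto apolipoproteins, was at 301, 182 and 159 CPM in Ctrl, at 247, 162 and 94.0 CPM in D0 and at 260 and 312 CPM in D2. The Ctrl and D0 ranges overlapped, and the intervals leave room for sizable change: the log2 difference was -0.14 in D0 (95% interval -0.83 to 0.56, edgeR adjusted p = 0.796) and 0.54 in D2 (-0.23 to 1.32, adjusted p = 0.313). Abcg1 (chr17:31057675-31117988, plus strand), which passes cholesterol to lipid-rich particles, ranged from 66.4 to 78.6 CPM in Ctrl, from 33.1 to 69.8 CPM in D0 and from 65.3 to 99.7 CPM in D2, with log2 differences of -0.17 (95% interval -0.77 to 0.43) and 0.31 (-0.36 to 0.97). D0-3 was the lowest library for both genes. The D0 difference of both was above 0 once D0-3 was left out, by 0.15 for Abca1 and 0.10 for Abcg1.

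Genes that sense or make sterol signals were rare in these cells. Nr1h3 (chr2:91184061-91202834, minus strand) was at 0.606, 1.01 and 0.644 CPM in Ctrl, at 1.78, 1.12 and 0.569 CPM in D0 and at 1.47 and 1.82 CPM in D2, from 11 to 41 UMIs a library, and was not called (log2 difference 0.84 in D0, edgeR adjusted p = 0.192, and 1.24 in D2, adjusted p = 0.101). Without the upper limit on UMIs it was called in D2 (1.33, adjusted p = 0.0363). Ch25h (chr19:34473778-34475164, minus strand) was at 0.190, 0.847 and 0.604 CPM in Ctrl, at 1.40, 0.657 and 1.34 CPM in D0 and at 1.89 and 1.73 CPM in D2, from 5 to 36 UMIs a library. Both D2 libraries lay above all others for Ch25h, and the D2 difference of 1.86 (SE 0.548, adjusted p = 0.0428) passed the threshold narrowly. It was called in 11 of 20 alternatives, with adjusted p-values from 0.00799 to 0.157, and not with the replicate number as a block (2.04, adjusted p = 0.0545), nor without Ctrl-3, D0-3, D2-1 or D2-2. With the version of Cell Ranger as a term, which sets D0 against Ctrl-1 alone (5 UMIs of Ch25h), the D0 difference was 2.77.

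The 2 enzymes that store and release sterol ester behaved unlike each other in their calls. Soat1 (chr1:156424525-156474331, minus strand), which makes the ester, was at 71.1, 77.7 and 79.1 CPM in Ctrl, at 82.2, 72.7 and 63.6 CPM in D0 and at 81.8 and 114 CPM in D2, and was not called (log2 difference 0.15, edgeR adjusted p = 0.546, and 0.47, adjusted p = 0.0913). The mean CPM of Soat1 was lower in D0 (72.8) than in Ctrl (76.0), a sign opposite to that of the fitted difference, which uses TMM-scaled libraries. Without D2-1 its D2 difference was 0.74 (adjusted p = 0.0314). Nceh1, the hydrolase, was at 12.8, 12.3 and 12.5 CPM in Ctrl, at 27.1, 22.3 and 13.03 CPM in D0 and at 41.0 and 64.9 CPM in D2. The Ctrl libraries differed by less than 1 CPM, D0-3 lay just above them, and both D2 libraries lay above all D0 libraries.

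For Nceh1 the log2 difference was 0.94 in D0 (SE 0.260, edgeR adjusted p = 0.0317) and 2.19 in D2 (SE 0.284, 4.56-fold, adjusted p = 0.000731). The D0 call was kept in 13 of 21 alternatives. It was lost without Ctrl-1, Ctrl-2, Ctrl-3, D0-1 or D0-2 (adjusted p from 0.0639 to 0.115), with cells thinned to 2000 UMIs (0.0574) and with D2-3. It was also lost with the version of Cell Ranger as a term, which sets D0 against Ctrl-1 alone. The D2 call was kept in all 21. Nceh1 lies at chr3:27182965-27284608 on the plus strand.

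Npc2 (chr12:84754562-84773152, minus strand), the sterol carrier of the lysosome, was at 843, 811 and 847 CPM in Ctrl, at 1252, 1204 and 1015 CPM in D0 and at 1150 and 1409 CPM in D2. No treated library overlapped the Ctrl libraries, although the change was the smallest of those called: 0.68 in D0 (SE 0.126, 1.61-fold, edgeR adjusted p = 0.00522) and 0.73 in D2 (SE 0.139, 1.66-fold, adjusted p = 0.00601). Mean levels were 834, 1157 and 1280 CPM in Ctrl, D0 and D2. Fitted folds use TMM-scaled libraries, and for Npc2, as for Apoe and Lpl, they are larger than the ratios of mean CPM. The D2 call was lost without D2-2 (0.55, adjusted p = 0.0728). Sorl1 (chr9:41964720-42124297, minus strand), the sorting receptor, was at 26.9, 27.2 and 26.4 CPM in Ctrl, at 56.0, 39.0 and 21.6 CPM in D0 and at 65.8 and 83.2 CPM in D2. The D0 libraries spread to both sides of the Ctrl libraries, while both D2 libraries lay above all others.

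Sorl1 was not called in D0 (log2 difference 0.74, SE 0.272, edgeR adjusted p = 0.0856) but was without D0-3 (1.02, adjusted p = 0.00437), and with DESeq2 (adjusted p = 0.0307) or with no filter on low counts (0.0117). In D2 Sorl1 was higher by 1.58 (SE 0.298, 2.99-fold, edgeR adjusted p = 0.00570). This call was not kept without D2-2 (1.38), nor with the version of Cell Ranger as a term (1.65). The headers name version 3.1.0 for Ctrl-2 and Ctrl-3 and 3.0.2 for Ctrl-1 and all D0 and D2 libraries compared. With the version as a term, D0 and D2 are therefore set against Ctrl-1 alone, and only the sizes of the differences are given. They were 1.93 in D0 and 2.19 in D2 for Apoe, 2.54 and 2.57 for Lpl, and 0.74 and 0.79 for Npc2.

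**Figure D2:**
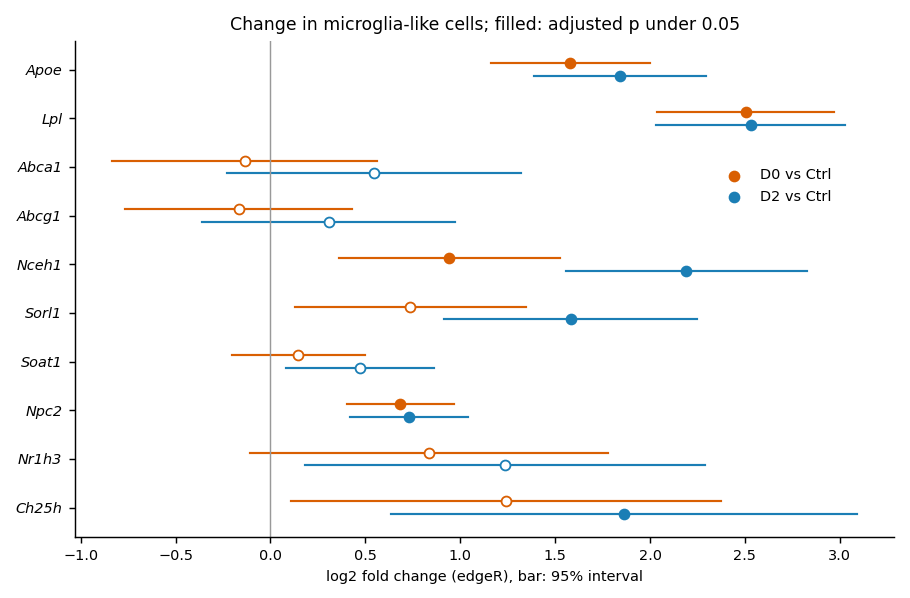
Log2 fold change over Ctrl in microglia-like cells (horizontal axis) for each gene, in D0 and D2, with the 95% interval of edgeR's fit as a bar and filled points where the adjusted p was under 0.05. Lpl has the largest D0 change at 2.50, and the bars of Abca1 and Abcg1 cross 0 in both comparisons.

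Whether 2 days without the inhibitor moved these genes was asked by setting D2 against D0. Of 12388 genes, edgeR called 0, that is 0%, and 834 (6.73%) had an unadjusted p under 0.05, Nceh1 (log2 difference 1.25, 95% interval 0.62 to 1.87) and Sorl1 (0.84, 0.18 to 1.51) among them. DESeq2 called 20 genes, 1 of them Nceh1 (1.24, adjusted p = 0.0197), and edgeR with no filter on low counts called Nceh1 too (adjusted p = 0.00880). For Apoe the D2 libraries lay above the D0 libraries, with a log2 difference of 0.26 (95% interval -0.19 to 0.72), and for Lpl and Npc2 the groups overlapped. For Abca1 the D2 libraries (260 and 312 CPM) also lay above those of D0 (94.0 to 247 CPM).

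The same cells and libraries were also compared inside each cluster of microglia-like cells that did not divide. This describes where the differences lay and is not a second observation of them. In each of 7 such clusters the mean level of Apoe, Lpl, Nceh1, Sorl1 and Npc2 was higher in D0 than in Ctrl, and again in D2 than in Ctrl. For Npc2 the libraries of treated and Ctrl mice did not overlap in 7 of 7 clusters at either time. For Apoe they did not in 6 clusters in D0 and 7 in D2, for Lpl likewise in 6 and 7, for Nceh1 in 3 and 7, and for Sorl1 in 1 and 6. Such counts were not made over all genes, so that no background share stands beside them. Abca1 was lower in 5 clusters and higher in 2 in D0, and overlapped in all 7.

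The mean level of Apoe varied among the clusters of untreated mice. In Ctrl libraries cluster 1, led by Csmd3 and Sox4, held it at a mean of 342 CPM, against 1373 CPM in cluster 5, led by the cytokine and feedback genes Tnf, Dusp2 and Il1a, and 1396 CPM in cluster 3, led by mitochondrial transcripts and Htra3. Cluster 1 reached 1223 CPM in D0 and 1669 CPM in D2, cluster 5 reached 2604 and 2664 CPM, and cluster 3 reached 1531 and 2033 CPM. Cluster 3 had the smallest ratio of D0 to Ctrl, 0.13 on the log2 scale, with overlapping libraries, and the highest ratio over the 7 clusters was 2.28. Neither the clusters nor their genes are independent of the cells compared, and no test was made between clusters.

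**Figure D3:**
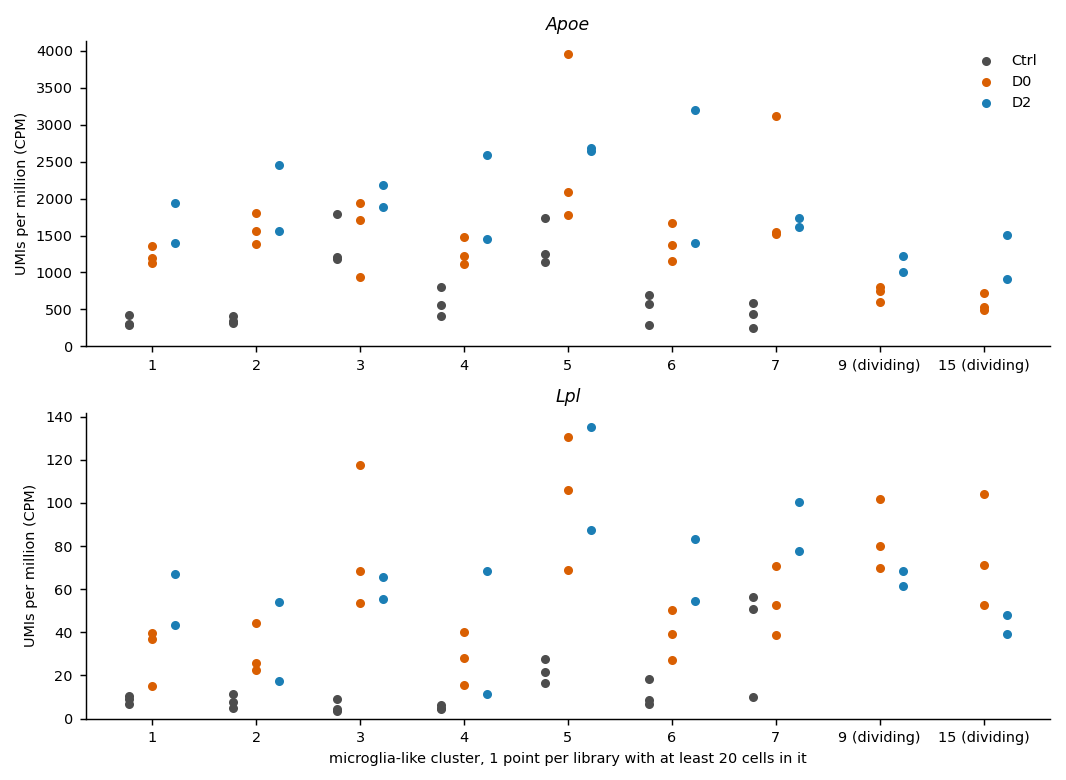
Apoe (top) and Lpl (bottom) in CPM (linear axes from 0) in each microglia-like cluster (horizontal axis), with 1 point per library that had at least 20 cells of the cluster. In clusters 1, 2, 4 and 6 all D0 and D2 points of both genes lie above the Ctrl points, and no Ctrl library had 20 cells of the dividing clusters 9 and 15.

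Dividing cells, those with UMIs of at least 2 of 8 mitotic genes, made up 8.15% to 24.9% of microglia-like cells in the 5 D0 and D2 libraries compared. Apoe was lower in them than in the other microglia-like cells of the same library in 5 of 5 libraries, at a mean of 885 ± 335 CPM (SD, n = 5) against 1939 ± 392 CPM. Abca1 (106 against 250 CPM), Abcg1 (39.6 against 74.8 CPM), Soat1 and Nceh1 were lower in 5 of 5 as well, whereas Lpl was higher in 4 of 5 (75.5 against 56.4 CPM).

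Cells high in Lgals3, which encodes the sugar-binding protein MAC2, were set apart by the rule the study used, a level above the mean plus 1 SD. The limit was computed anew over microglia-like cells alone, so that it and the shares are not those of the study. It was so low that any cell within the depth limits passed with 1 Lgals3 UMI. Lgals3-high here thus means a cell in which Lgals3 was detected. Lgals3-high cells made up 0.864% to 1.30% of microglia-like cells in the Ctrl libraries, while their share was 4.81% to 8.74% in D0 and 6.75% to 13.2% in D2. These shares were taken without thinning. The median depth ran from 5396 UMIs a cell in D0-1 to 10531 in D0-3, and the part of depth in the shares was not tested. Apoe was higher in them than in the rest of the same library in 8 of 8 libraries, at 2950 ± 804 CPM (SD, n = 8) against 1147 ± 549 CPM. Lpl was at 217 ± 132 CPM against 32.8 ± 23.5 CPM, also higher in 8 of 8. In Ctrl brains alone, Lgals3-high cells held Apoe at 2176 ± 52.7 CPM (SD, n = 3) against 558 ± 96.3 CPM. They held Lpl at 268 ± 229 CPM against 8.49 ± 1.91 CPM, a spread between libraries nearly as large as the mean. Nceh1 (52.1 against 23.5 CPM), Soat1 and Abcg1 were higher in 8 of 8 libraries, Abca1 in 7 and Sorl1 in 4.

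Apoe was unevenly spread over cells. With each cell thinned to 2000 UMIs, 26.5% ± 2.88 (SD, n = 3) of Ctrl microglia-like cells held an Apoe UMI, 49.1% ± 3.47 in D0 and 57.2% ± 4.95 (n = 2) in D2. Cells under 2000 UMIs, from 1.40% to 8.15% of a library, were left out, and without thinning the shares were 48.7%, 68.2% and 70.6%. Neutrophil-like cells, which should lack the gene, gave thinned shares of 18.4%, 14.5% and 13.5% (unthinned 20.5%, 20.6% and 24.3%, at a median of 3310 UMIs a cell against 7180 in microglia-like cells). In the D0 libraries these thinned shares ran from 8.56% to 21.6%. They are set beside the others as a background level, and the part of free RNA in them was not tested.

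The exact permutation test over libraries, two-sided, gave p = 0.1 for D0 and p = 0.2 for D2, the smallest these numbers of libraries allow, and 0.364 after adjustment over 20 comparisons. For Lpl the thinned share had a mean of 1.43% in Ctrl, of 7.36% in D0 and of 7.53% in D2, against at most 2.70% in neutrophil-like cells of any library. For Nceh1 the mean thinned share was 2.74% in Ctrl and 4.17% in D0 (unthinned 8.85% and 14.3%, and 25.8% in D2). Both lay within the 0% to 11.1% and 1.91% to 5.41% of neutrophil-like cells in the same groups. In D2 the thinned share was 8.23% and 12.2% in the 2 libraries, against 5.88% and 6.20% in their neutrophil-like cells, while the 11.1% in Ctrl rested on 3 of 27 cells. The level of Nceh1 in Ctrl neutrophil-like cells was 0 and 55.4 CPM (mean 27.7 CPM), against a mean of 12.5 CPM in microglia-like cells. Their shares are thus not read as background for this gene, and the part of free RNA was not tested.

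The 10% of thinned cells richest in Apoe held 77.4% to 84.5% of its UMIs in Ctrl libraries, against 64.9% to 66.6% in D0 libraries and 59.0% to 63.3% in D2 libraries, so that the 3 groups did not overlap. In the cells richest in Apoe, compared with the rest of the same library, Lpl, Nceh1 and Npc2 were higher in 8 of 8 libraries, with median ratios of 1.55, 1.61 and 1.16. Abca1 and Sorl1 were higher in 7, Abcg1 and Soat1 in 6, Nr1h3 in 5 and Ch25h in 3. These counts were not made over all genes, so that no background share stands beside them. The summed macrophage markers were higher in 8 of 8 libraries (median ratio 1.48, 2.25 in Ctrl alone), and the summed microglia markers in 1 of 8 (median ratio 0.919). The part of macrophage RNA or macrophages in this pattern was not tested.

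Over the 8 microglia-like sums, the genes whose log2 level followed Apoe most closely were Slc25a4, which encodes an ADP/ATP carrier of mitochondria (Pearson's r = 0.985), the lysozyme gene Lyz2 (0.979), 1810058I24Rik (0.979), AU020206 (0.977) and Cstb, which encodes the protease inhibitor cystatin B (0.977). Lyz2 ran from 366 to 425 CPM in Ctrl, from 785 to 1056 CPM in D0 and from 896 to 1408 CPM in D2, and Cstb from 72.7 to 80.3, from 135 to 150 and from 144 to 171 CPM. The points share libraries and groups, so that these correlations describe the difference between Ctrl and treated mice that the genes have in common.

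Other genes of the pathway were called in both directions in microglia-like cells. Over all genes tested, 12.6% were called higher and 7.59% lower in D0, and 10.6% and 7.42% in D2. These shares stand beside the counts of each list below, and no list was tested against them. Of 25 genes of sterol synthesis, 5 were called higher and 2 lower in D0 (median log2 difference 0.35, against -0.05 over all genes) and 5 higher and 1 lower in D2 (0.20, against -0.03). Cyp51, a demethylase of the pathway, was higher in D2 (10.3 CPM in Ctrl, 27.9 CPM in D2, log2 difference 1.55), while Scap, the escort of the sterol-regulated factor SREBP, was lower in D0 (22.2 and 14.4 CPM, -0.41) and in D2 (12.97 CPM, -0.67). Pmvk, a kinase of the mevalonate pathway, was higher in D2 (14.2 and 20.1 CPM, 0.61), and Ggps1, which makes the lipid tail of small GTPases rather than sterol, was lower in D0 (40.9 and 24.4 CPM, -0.54).

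Of 14 genes of lipid droplets, 6 were called higher and 2 lower in D0 (median 0.36) and 5 higher and 2 lower in D2 (0.18). Plin2, a coat protein of droplets, was at 23.5 CPM in Ctrl, 40.3 CPM in D0 and 56.5 CPM in D2 (log2 differences 1.00 and 1.37), and Fabp5, a fatty acid carrier, at 3.85, 22.6 and 32.5 CPM (2.77 and 3.19). The lipases Mgll (103, 42.1 and 40.9 CPM, -1.09 and -1.23) and Lipe (21.8, 13.7 and 13.1 CPM, -0.45 and -0.63) were lower. Of 13 genes of uptake and the lysosome tested, 3 were called higher in D0 and 3 in D2, with Lrpap1, the chaperone of lipoprotein receptors, at 134, 159 and 176 CPM (0.47 and 0.51), while Lrp1, a receptor that takes up apolipoprotein E, was lower in D2 (326 and 216 CPM, -0.49), the only one of this list called lower.

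Of 15 genes of LXR and efflux tested, 1 was called in D0, lower (median -0.04), and 3 in D2, of which 2 were higher and 1 lower (-0.36). Those lower were Mylip, an LXR target that degrades the LDL receptor (272 and 168 CPM, -0.48 in D0), and Lpcat3, an enzyme of membrane phospholipids (156 and 66.6 CPM, -1.12 in D2). Those higher in D2, Apoc1 and Apoc4, are neighbours of Apoe and were at 2.42 and 0.984 CPM there.

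Across the cell classes, Apoe was highest in astroglial- and macrophage-like cells. Astroglial-like cells held it at 18294 CPM in the 1 library with at least 20 of them, border-associated macrophage-like cells at a mean of 14171 ± 9405 CPM (SD, n = 8), ependymal-like cells at 3568 CPM (1 library) and monocyte-like cells at 2999 ± 1301 CPM (n = 7). Endothelial-like cells (1401 ± 215 CPM) lay above microglia-like cells (1266 ± 623 CPM) in Ctrl, at 1043 to 1507 against 483 to 684 CPM, overlapped with them in D0 and lay below them in D2, at 1299.5 to 1524 against 1780.2 to 2087 CPM. Mural-, dendritic cell-, neutrophil- and lymphoid-like cells followed, at means of 663, 505, 195 and 163 CPM. Macrophage-like cells lay above the microglia-like cells of the same library in 8 of 8 libraries, by means of 24918 against 580 CPM in Ctrl, 6869 against 1507 CPM in D0 and 9002 against 1934 CPM in D2. Over these 10 classes the closest patterns were those of Rufy3 (Pearson's r = 0.865), Srek1ip1 (0.857), Mapk1ip1l (0.849), Ralgps2 (0.829) and Il18 (0.826), which all peaked in the astroglial-like cells of that 1 library.

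**Figure D4:**
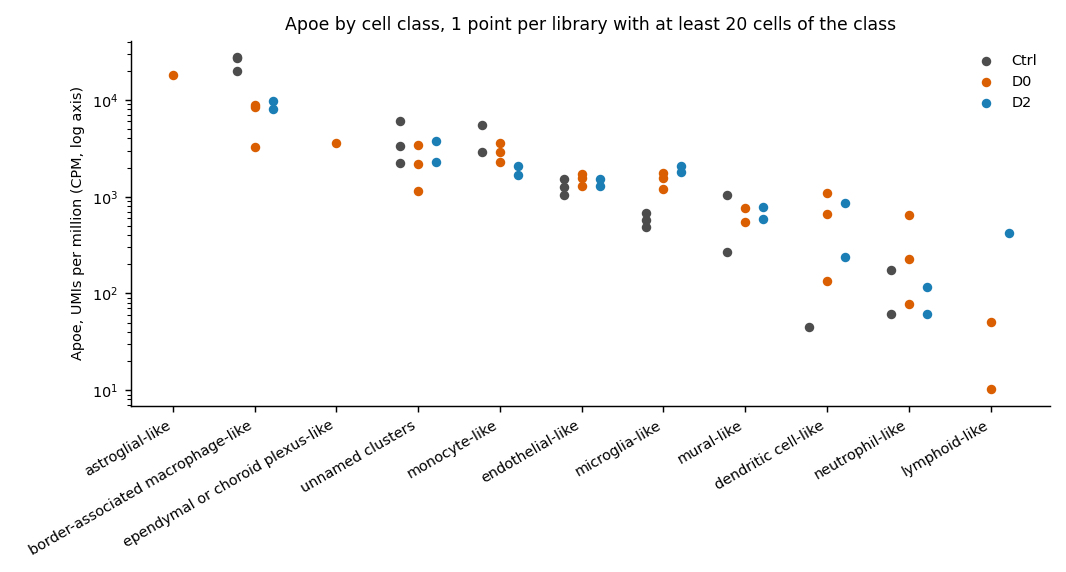
Apoe in CPM (vertical axis, log scale) in each cell class (horizontal axis), with 1 point per library that had at least 20 cells of the class and colours for Ctrl, D0 and D2. Macrophage-like cells of Ctrl libraries lie from 19869 to 27626 CPM and those of D0 and D2 from 3271 to 9856 CPM, whereas in microglia-like cells the D0 and D2 points lie above the Ctrl points.

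The other genes peaked in part in the same classes as Apoe and in part in others. Soat1 was highest in astroglial-like cells (186 CPM, the same 1 library), and Nceh1 in macrophage-like cells (39.3 ± 13.8 CPM, n = 8). Lpl was highest in mural-like cells, at 131 ± 57.0 CPM (n = 6), above microglia-like cells in 6 of 6 libraries. Sorl1 was highest in neutrophil-like cells at 626 ± 235 CPM (n = 7), followed by monocyte-like cells at 147 ± 25.5 CPM (n = 7), with 43.3 ± 22.5 CPM in microglia-like cells. The 8 neutrophil markers, whose part in the D2 difference of Sorl1 was not tested, summed in microglia-like cells to 210 to 289 CPM in Ctrl, 189.6 to 386 CPM in D0 and 276 to 427 CPM in D2. Nr1h3 was highest in mural-like cells (35.9 ± 14.2 CPM, n = 6), and Ch25h in macrophage-like cells (13.6 ± 7.06 CPM, n = 8), with no UMI in monocyte-, mural- or neutrophil-like cells. Abca1 was lower in macrophage-like (172 ± 67.5 CPM) than in the microglia-like cells (215 ± 77.0 CPM) of the same library in 7 of 8 libraries, and Npc2 was highest in monocyte-like cells (1466 ± 288 CPM, n = 7).

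In macrophage-like cells Apoe went the other way. It was at 27260, 19869 and 27626 CPM in Ctrl, at 8886, 3271 and 8451 CPM in D0 and at 9856 and 8149 CPM in D2, without overlap between Ctrl and treated libraries. The log2 difference was -1.74 in D0 (SE 0.298, edgeR adjusted p = 0.0183) and -1.39 in D2 (SE 0.340, adjusted p = 0.0906). Apoe was the only one of 9 genes tested that was called in D0, where 1.84% of 8541 genes were called, and 0 of 9 were called in D2, where 0.539% were, with 2 (Apoe and Npc2) at an unadjusted p under 0.05 and Apoe called by DESeq2 (-1.36, adjusted p = 0.00102). Leaving out Ctrl-3 or D0-3 took the D0 call away (adjusted p = 0.0952 and 0.0619), and leaving out D0-2 made the D2 difference a call (adjusted p = 0.0146). In monocyte-like cells the means of Apoe were 4221, 2934 and 1875 CPM in Ctrl, D0 and D2, with overlap between Ctrl and D0 only. In unnamed clusters they were 3895, 2252 and 3054 CPM, with overlap. In endothelial-like cells the means were higher after treatment (1268, 1526 and 1412 CPM), with overlap. Mural-like cells had close means (652, 656 and 681 CPM), and their 2 Ctrl libraries were at 266 and 1038 CPM. Dendritic cell-like cells were at 44.9 CPM in the 1 Ctrl library with enough of them. Their means were 629 CPM in D0 (134 to 1087 CPM) and 549 CPM in D2 (238 to 860 CPM). These classes were not tested.

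The D0 change of Apoe in macrophage-like cells differed from that in microglia-like cells by -3.37 on the log2 scale (interaction term, SE 0.304, edgeR adjusted p = 5.26e-07). It was the only one of the 10 genes called for this difference, as were 2.19% of 12225 genes, and it was called in 13 of 13 alternatives, at -3.75 to -2.19. Lpl was at 36.6, 79.9 and 12.3 CPM in Ctrl and at 323, 63.7 and 78.8 CPM in D0 in macrophage-like cells, with overlap, a log2 difference of 2.02 (adjusted p = 0.139) and no call for a difference between classes (-0.48, adjusted p = 0.852).

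The macrophage-like class did not carry its markers at the same level in the 3 groups. The summed level of its 12 markers was 2028 to 5097 CPM in Ctrl, 288 to 629 CPM in D0 and 474 to 807 CPM in D2, with 1 marker, Lyve1, at 0 in both D2 libraries. Mrc1 was at 421 to 1061 CPM in Ctrl and 26.5 to 91.7 CPM in D0, and Pf4 at 475 to 1208 and 7.45 to 82.5 CPM. The 12 microglia markers were far above them, at 13017 to 19672 CPM in the Ctrl libraries, 11689 to 14434 CPM in D0 and 11303 to 12103 CPM in D2. The 8 neutrophil markers summed to 120 to 8740 CPM in Ctrl, 2509 to 11428 CPM in D0 and 2613 to 3113 CPM in D2. Sub-clusters 2 and 6 held most of the class in each of the 8 libraries, and Apoe was lower there in both, at means of 21268, 4178 and 7838 CPM and of 40070, 12052 and 11444 CPM in Ctrl, D0 and D2, while sub-cluster 14, at 36394 CPM, had enough cells in Ctrl alone. Cells with UMIs of at least 3 of the 12 macrophage markers were 39.4% to 72.3% of the class in Ctrl, 10.4% to 16.7% in D0 libraries and 10.98% to 12.4% in D2 libraries.

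In those cells, 9 to 16 a library after treatment, Apoe was at 30401, 30344 and 30505 CPM in Ctrl, at 18409, 9199 and 33563 CPM in D0 and at 21369 and 14679 CPM in D2. D0-3 lay above all Ctrl libraries, and the D0 call was lost (-0.41, edgeR adjusted p = 0.561), as D2 stayed uncalled (-0.76, adjusted p = 0.427). The difference from microglia-like cells was -2.19 and was still called. This rule on cells was chosen after the data had been seen. A fall of Apoe in macrophages thus cannot be told apart from a change in the cells that were given that name.

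**Figure D5:**
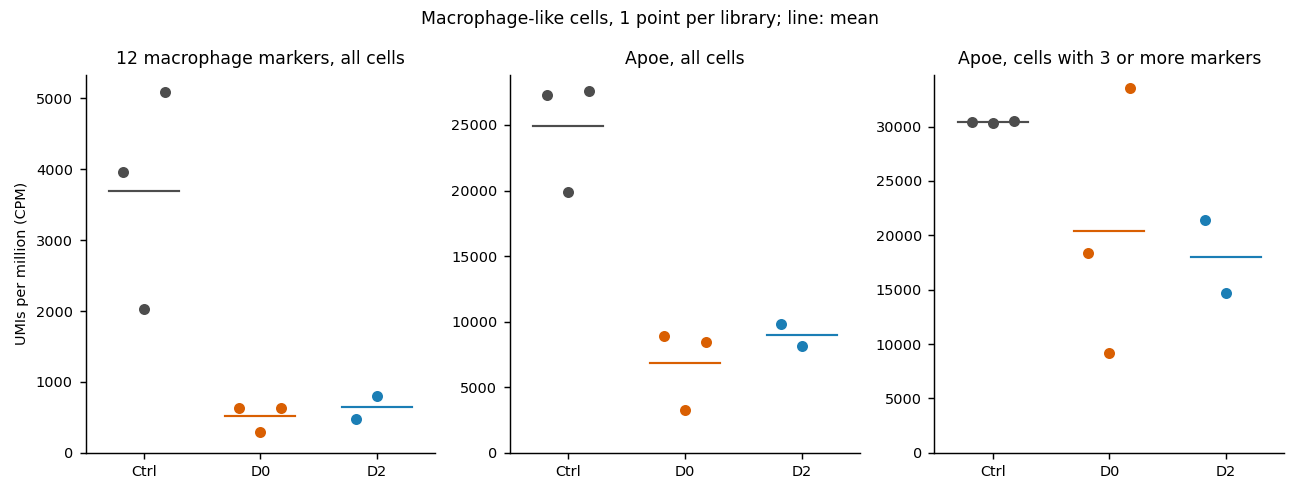
Border-associated macrophage-like cells, 1 point per library and a line at the mean, in CPM (linear axes from 0). The sum of 12 macrophage markers (left) and Apoe (middle) are lower in every D0 and D2 library than in Ctrl, while among cells with at least 3 markers (right) Apoe in D0 runs from 9199 to 33563 CPM, on both sides of Ctrl.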

How the data were processed

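Cells of 9 libraries had been captured with 10x Genomics v3 chemistry. The authors aligned the reads to mm10 and deposited raw UMI counts per gene and barcode. The labels name Cell Ranger 3.1.0, while the headers of the deposited matrices name 3.0.2 for 6 libraries and 3.1.0 for 3. Total UMIs ranged from 20257894 to 61230741 a library. A barcode passed with 500 to 20000 UMIs, 200 genes or more and a mitochondrial share no higher than 10%, and a gene had to be seen in 10 cells or more. The study removed no doublets beyond the upper limit on UMIs, and no doublet caller was run.

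The 28655 cells of 8 libraries (13 brains) were clustered with scanpy 1.11.5 and leidenalg 0.10.2 (3000 variable genes, 10 principal components, 20 neighbours, resolution 0.6) without 80 genes, that is the 10 described and 70 of their pathway. A cluster took the name of a cell type from at least 3 fixed markers at 20 CPM or more and a log2 difference over 1 (pseudocount 10 CPM), and was called microglia-like from markers at 100 CPM or more. D2-3 and cells over the limit were placed by their 30 nearest neighbours.

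Counts were summed per library for the quasi-likelihood test of edgeR 4.0.16 in R 4.3.3, with TMM factors, filterByExpr, all 3 groups in 1 fit and p-values adjusted over all genes tested. Test scripts were tested on simulated data. DESeq2 1.42.0, other size factors, no filter, each library left out, cells thinned, dividing cells left out, other sets of cells, resolution 1, the version of Cell Ranger as a term and the replicate number as a block were alternatives, and the rule of 3 macrophage markers was added after the data had been seen. The version term leaves Ctrl-1 as the only Ctrl library that D0 and D2 are set against, since Ctrl-2 and Ctrl-3 have the other version. Same-numbered Ctrl and D0 libraries deviated together (r from 0.327 to 0.620 over 3 pairs), which meets the rule for pairing set here, although Ctrl-3 correlated more with D0-2 (0.450) than with D0-3 (0.327) and no label names a shared batch, while for Ctrl and D2 r was 0.0279 and 0.102. Libraries of a group came from separate mice. The p-values of edgeR rest on the spread between libraries within groups, estimated over the 8 libraries together and moderated across genes. Ctrl libraries held 1 brain and D0 and D2 libraries 2 pooled brains, so that this spread joins unlike units.

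Levels are UMIs per 1000000 UMIs in the sum of a class within a library. UMIs were counted at the 3′ end, and levels were not compared between genes. Intervals of shares and counts cover counting error only. Genes named from the 4 pathway lists were up to 3 called per direction and comparison with the largest fold among those at 20 CPM or more in the higher group, and those like Apoe were the 5 with the highest correlation among genes at 50 CPM or more. Genes named by another rule are Apoc1 and Apoc4, chosen after their values were seen. The 10 genes and the lists were chosen with earlier results of these data known. Gene positions are those of GENCODE (GRCm38), and promoter windows are RefSeq's (GRCm38.p6).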

Additional observations from a re-analysis of the deposited data

Results flagged for a closer look

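The D0 change of Apoe differed between macrophage-like and microglia-like cells: it was -3.37 on the log2 scale in the first relative to the second by the interaction term (edgeR, SE 0.304, adjusted p = 5.26e-07), lower in macrophage-like cells in 3 of 3 D0 libraries and higher in microglia-like cells in 3 of 3. The summed macrophage markers of the macrophage-like class were lower in the same libraries, at 288 to 629 CPM against 2028 to 5097 CPM in Ctrl, and their part in the difference was not tested beyond the cells with at least 3 markers, where it was -2.19.

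D2-3, the library left out of the comparisons, held Lpl at 281 CPM in its microglia-like cells, against at most 79.4 CPM in the other 8 libraries. It held Ch25h at 80.9 CPM (623 UMIs), against at most 1.89 CPM. In the same cells Apoe was at 208 CPM, Abca1 at 8.83 CPM, Abcg1 at 2.60 CPM and Sorl1 at 4.55 CPM, each below the lowest of the other 8 libraries. The cause was not tested.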

How the results depend on the processing

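Over the alternatives, Lpl (2.21 to 3.88) and Nceh1 (1.79 to 2.54) in D2 and the difference of Apoe between classes kept their calls throughout, and Apoe stayed above 0 in D0 (0.12 to 1.93, called in 18 of 21) and D2 (0.42 to 2.19, 19 of 21). The replicate block, under which 4 of the 10 genes were called in D0 and 5 in D2, changed no other call than that of Ch25h in D2 (2.04). With D2-3 included, edgeR called 0 of the 10 genes in D0 and 3 in D2 in microglia-like cells and 0 in D0 in macrophage-like cells. Leaving out 1 library gave 3 to 5 calls in D0, 3 to 6 in D2 (3 without D2-2), and in macrophage-like cells 0 to 3 in D0 (0 without Ctrl-3 or D0-3, 3 without Ctrl-2), 0 to 1 in D2 and 1 to 3 for the difference between classes. DESeq2 and no filter each called 1 gene in D2 against D0 and 1 in D2 macrophage-like cells, and no filter called 3 in D0 macrophage-like cells and 3 for the difference, where cells with 3 markers gave 2, and 0 for D0. The causes of these changes were not tested.

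Signs of log2 differences turned only for genes that were not called in the comparison concerned. They did so with dividing cells left out for Abca1 (0.13) and Abcg1 (0.075) in D0 and Npc2 in D2 against D0 (-0.0046), with thinned cells for Abca1 (0.0064), with D2-3 for Abcg1 in D2 (-0.21), for Apoe (-0.21) and Npc2 (-0.19) in D2 against D0 and for Abca1 in D2 macrophage-like cells (-0.17), with all myeloid cells (-0.085) and no upper limit (-0.17) for Lpl in D2 against D0, and with 3 markers for Nceh1 in D0 (0.41) and Soat1 in D2 (-0.035). Leaving out 1 library gave -0.48 to 0.16 (Abca1, D0), -0.42 to 0.10 (Abcg1, D0), -0.062 to 0.63 (Abcg1, D2), -0.15 to 0.29 (Lpl) and -0.14 to 0.22 (Npc2) in D2 against D0, and in macrophage-like cells -0.73 to 0.22 (Nceh1, D0), -0.041 to 0.17 (Soat1, D0), -1.64 to 0.092 (Ch25h, D0), -0.042 to 0.40 (Abca1, D2), -0.24 to 0.73 (Ch25h, D2) and -1.58 to 0.18 (Lpl, difference between classes). Shares of cells, in percentage points, turned without thinning for Abca1 (-2.02), Abcg1 (-3.81) and Npc2 (-0.76) in D2 and Soat1 in D0 (0.96, and 0.33 at 1000 UMIs), and at 1000 UMIs for Nr1h3 in D0 (-0.016). Of these, Npc2 in D2 was called higher on its summed level.

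Counts over all genes (higher and lower, 1555 and 940 in D0) were 421 and 42 with D2-3, 768 and 266 without dividing cells, 950 and 376 thinned and, for those lower, 345 with the version as a term, and with 1 library left out at the least 950 and 228, both without D0-2. In D2 (1315 and 919) they were 829 and 317 with the version, 719 and 466 without dividing cells, 873 and 552 thinned, 364 lower with D2-3, and 753 and 278 without D2-2. D2 against D0, DESeq2 gave 8 and 12 and no filter 22 and 14. In macrophage-like cells they were 85 and 72 in D0 (DESeq2 188 higher, no filter 438 and 272, D2-3 15 and 19, 3 markers 31 lower, 1 library out 2 to 187 and 10 to 104), 17 and 29 in D2 (DESeq2 95 and 65, no filter 213 and 238, 3 markers 10 and 4, 1 library out 0 to 75 and 0 to 83) and 16 and 252 for the difference (no filter 72 and 407, D2-3 5 and 117, 3 markers 140 lower, 1 library out 7 to 35 and 115 to 302).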
